A study of Chlamydomonas reinhardtii with 16 samples.

Results

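The late night step of the diel cycle was examined in *C. reinhardtii* as the difference between cultures collected at ZT 21 and cultures collected at ZT 18 (ZT, zeitgeber time, hours after lights on). It comprises 4 libraries of the 16 in the series, chosen by their titles alone: replicates A and B at ZT 21, and replicates A and B at ZT 18. All 4 come from strain dw15.1, a laboratory strain usually described as lacking a normal cell wall, grown in Tris-acetate-phosphate medium, so that acetate was present as a carbon source day and night. The cultures received no drug or other agent, had been under 12 hr light and 12 hr dark for 48 hr before the first collection, and were in darkness at both times, so the groups differ by 3 hr of night and not by light. Each library is an independent culture, and each culture is a mixture of cells. A lower level can therefore mean fewer cells in a state or less RNA per cell, which cannot be told apart here. Of 17114 gene models, the 11726 with a mean of at least 1 FPKM over the 4 libraries were tested, and the other 5388 were left out.

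In a culture that alternates between light and dark, *C. reinhardtii* grows during the day and divides around and after dusk, often by several rapid rounds of DNA replication and mitosis within the mother cell. Both cilia are resorbed before division, their basal bodies serve the mitotic spindle, and the daughters build new cilia once they hatch. Photosynthesis stops at night, starch made in the light is broken down, and transcripts for the chloroplast rise again around dawn in many algae and plants. The results below follow these roles, from photosynthesis and starch to cilia, microtubules and DNA replication, and then to signaling and protein turnover.

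The 4 libraries were the deepest part of the series, with 18680367 to 21871265 fragments each against 5866513 to 21871265 over all 16. A count of 3 fragments corresponded, at the median gene length, to 0.0195 to 0.0245 FPKM after scaling. Across genes, replicates correlated at r = 0.996 at ZT 21 and 0.997 at ZT 18, whereas ZT 21 and ZT 18 libraries correlated at 0.970 (replicates A) and 0.953 (replicates B). Genes are not independent replicates, and these coefficients are descriptions. Transcripts of the nuclear photosynthesis gene LHCII (69.7 FPKM or more) and of cilia genes were present in all 4 libraries. All values are FPKM scaled to a common 75th percentile, and a difference is that of mean log2(FPKM + 1), ZT 21 minus ZT 18, with the standard error (SE) of the limma fit over n = 2 cultures per time point. The added 1 understates the change of genes with few FPKM.

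Between ZT 21 and ZT 18, 3045 genes were higher at ZT 21 (26.0% of the 11726 tested) and 2438 were lower (20.8%), at an adjusted p under 0.05 in limma with Benjamini-Hochberg adjustment over all genes tested. Most changes were small. The median difference was 0.41 among genes that rose, -0.48 among genes that fell and 0.03 over all genes. Large changes ran mostly downward, since 304 genes (2.59%) fell by at least 2-fold, while 106 (0.904%) rose by that much. Both ZT 21 libraries lay above both ZT 18 libraries in 4832 genes (41.2%) and below them in 4056 (34.6%). The groups did not overlap in any of the 3045 genes that rose, nor in 2437 of the 2438 that fell. Without scaling, which moved the median difference to -0.06, the higher calls made up 39.9% of all calls in place of 55.5%, so the balance of directions depends on the scaling.

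**Figure D1:**
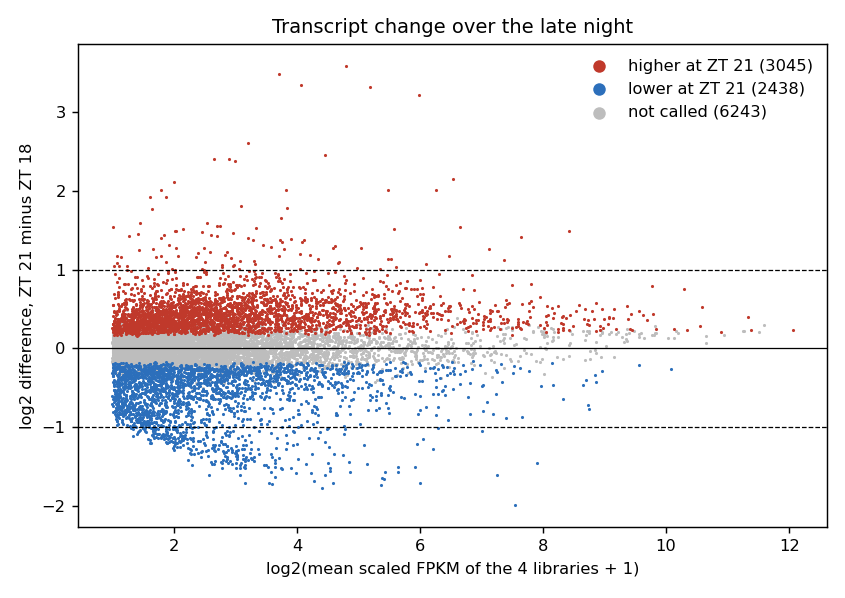
Log2 difference in transcript level, ZT 21 minus ZT 18, against the log2 of the mean scaled FPKM of the 4 libraries plus 1, with 1 dot per gene tested. Red dots are the 3045 genes higher at ZT 21, blue dots the 2438 lower and grey dots the genes not called. The dashed lines mark 2-fold, beyond which blue dots outnumber red ones, while the highest red dots lie above 3 on the log2 scale.

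The replicates at ZT 21 were not equally far from ZT 18. Among the 304 genes at least 2-fold lower at ZT 21, replicate B was below replicate A in 298 (98.0%), against 51.4% of all genes tested. Among the 106 genes at least 2-fold higher, replicate B was below A in 10 (9.43%). At ZT 18, replicate B was below A in 15.8% and 64.2% of the same sets. The ZT 21 replicate B culture thus stood farther from ZT 18 in both directions, and without it 195 genes were at least 2-fold lower in place of 304. The part of this gap in the results was not tested. Where a count of genes higher or lower moves by more than 1.5 times without that library, the count without it is given. Within families and lists, counts at 2-fold and counts of steps that differ were not recomputed without it.

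The largest rise among genes with a known domain was in a Myb gene, Cre02.g083750 (genome version 4.3, chromosome 2, positions 1322977 to 1330729). Myb domains bind DNA and occur in many transcription factors. It had 22.3 and 23.6 FPKM at ZT 21, against 1.12 and 1.16 FPKM at ZT 18, with a difference of 3.49 ± 0.09, adjusted p = 2.0e-12. Both ZT 21 libraries were about as high as each other and far above ZT 18, where the transcript was near 1 FPKM. Its mean was 6.36 FPKM at ZT 0, 0.135 at ZT 12 and 0.0954 at ZT 15, so that ZT 21 was its highest point of the 8 time points. In the other direction, the Myb gene Cre12.g522400 had 4.22 and 3.33 FPKM at ZT 21, against 9.56 and 11.7 FPKM at ZT 18 (difference of -1.29 ± 0.14, adjusted p = 4.2e-06). Of the 31 Myb genes tested, 10 rose and 6 fell (3 without ZT 21 replicate B), with a median difference of 0.07 beside 0.03 over all genes. These shares, 32.3% and 19.4%, are near the 26.0% and 20.8% of all genes.

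Some of the largest changes were in genes without annotation in the sources used here, which are given by locus alone. Cre01.g064850 had 43.0 and 57.7 FPKM at ZT 21, against 3.52 and 2.96 FPKM at ZT 18, and Cre15.g634650 had 26.4 and 32.3 FPKM at ZT 21, against 2.07 and 1.89 FPKM at ZT 18. Their differences, 3.59 ± 0.13 and 3.34 ± 0.11 (SE), were similar in size to that of the Myb gene. The steepest falls of this kind were in Cre17.g708750, with 89.9 and 60.4 FPKM at ZT 21, against 292 and 297 FPKM at ZT 18, and Cre16.g667850, with 10.0 and 7.32 FPKM at ZT 21, against 32.0 and 31.3 FPKM at ZT 18.

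Genes of photosynthesis and carbon fixation moved upward in the dark. PRK1, phosphoribulokinase of the Calvin cycle, had 81.0 and 81.4 FPKM at ZT 21, against 47.0 and 48.0 FPKM at ZT 18 (difference of 0.76 ± 0.07, adjusted p = 5.9e-07). FNR1, the ferredoxin-NADP reductase that passes electrons to NADP, had 117 and 119 FPKM at ZT 21, against 78.5 and 79.3 FPKM at ZT 18 (difference of 0.57 ± 0.09, adjusted p = 1.0e-04). For LHCII, a light-harvesting protein, the values were 110.4 and 96.4 FPKM at ZT 21, against 72.8 and 69.7 FPKM at ZT 18 (difference of 0.53 ± 0.10, adjusted p = 4.9e-04). In each of these genes both ZT 21 cultures lay above both ZT 18 cultures, and all remained well below their daytime means, which were 319 FPKM at ZT 6 for PRK1, 399.7 FPKM at ZT 3 for FNR1 and 646 FPKM at ZT 6 for LHCII. CAH1, a carbonic anhydrase of the carbon-concentrating system, stood at 3.70 and 4.36 FPKM at ZT 21, against 1.02 and 0.790 FPKM at ZT 18. Its level was low at both times, its difference was 1.40 (adjusted p = 2.1e-06, limma), and at ZT 3 its mean was 49.1 FPKM. CAH1 passed the filter on low values only through ZT 21, where it was high.

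Aldolases, which split and join sugar phosphates in glycolysis and the Calvin cycle, did not move as one. FBA3, by far the most abundant of the 4 genes per length, had 306 and 310.0 FPKM at ZT 21, against 226 and 232 FPKM at ZT 18 (difference of 0.43 ± 0.09, adjusted p = 0.0014). FBA1 had 8.93 and 10.7 FPKM at ZT 21, against 5.14 and 5.35 FPKM at ZT 18, and FBA2 had 10.9 and 11.5 FPKM at ZT 21, against 6.90 and 6.38 FPKM at ZT 18, with differences of 0.79 ± 0.12 and 0.67 ± 0.09 (SE), and both passed the test. FBA4 had 1.34 and 0.844 FPKM at ZT 21, against 1.20 and 1.30 FPKM at ZT 18, and its groups overlapped (adjusted p = 0.52 in limma). Of the 15 rhythmic genes that the study had listed from earlier work, 8 rose and none fell, among them TufA, the chloroplast elongation factor, which had 5.09 and 5.22 FPKM at ZT 21, against 3.80 and 4.21 FPKM at ZT 18 (difference of 0.30 ± 0.08, adjusted p = 0.0047, and adjusted p = 0.061 without ZT 18 replicate A). The 7 that did not pass included TRXh1 (a thioredoxin), HSP70B (a chloroplast chaperone), CYC4 and the gene named ATP2 or ARF1. The differences of those 7 lay between -0.15 and 0.17. Without scaling, 2 of the 15 were lower, TUB2 (-0.25) and ATP2 or ARF1 (-0.17, adjusted p = 0.031 in limma). In the scaled data, 53.3% of the 15 rose, beside 26.0% of all genes, and their median was 0.30.

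All 9 genes of the study's photosystem I list were higher on average at ZT 21, and 7 passed the test (4 without ZT 21 replicate B), with a median difference of 0.39. The passing genes ranged from a difference of 0.23, in Cre09.g412100 with 727 and 778 FPKM at ZT 21, against 641 and 639.8 FPKM at ZT 18, to 0.58 in Cre32.g781300 with 513 and 601 FPKM at ZT 21, against 380.3 and 362 FPKM at ZT 18. In the list of the thylakoid lumen, the inner space of the photosynthetic membranes, 8 of 9 genes rose, with a median of 0.42. Its most abundant gene at these times was Cre02.g132800, with 881 and 938 FPKM at ZT 21, against 683 and 668 FPKM at ZT 18 (difference of 0.43 ± 0.07, adjusted p = 2.1e-04). The study formed these function lists on the same libraries by the time of peak expression, so their direction is not independent evidence. The ferredoxin domain, which carries an iron-sulfur cluster for electron transfer, belonged to 11 genes tested, of which 7 rose and none fell. The share that rose was 63.6%, beside 26.0% of all genes. Cre07.g334800 rose most of these, with 45.9 and 48.0 FPKM at ZT 21, against 30.3 and 28.3 FPKM at ZT 18 (difference of 0.66 ± 0.13, adjusted p = 6.9e-04). The count of 7 was 4 without ZT 18 replicate B and 4 without scaling.

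Genes with an alpha-amylase domain changed in both directions, and the domain alone does not tell which step of starch metabolism they serve. The alpha-amylase domain was found in 9 genes tested, of which 4 rose and 3 fell. These are 44.4% and 33.3%, beside 26.0% and 20.8% of all genes. Cre10.g444700 (chromosome 10, 3405206 to 3412993) had 43.7 and 47.2 FPKM at ZT 21, against 18.3 and 18.1 FPKM at ZT 18, with a difference of 1.27 ± 0.07, adjusted p = 6.0e-09, and its highest mean of the 8 time points was at ZT 21. By contrast, Cre08.g362450 had 30.6 and 29.7 FPKM at ZT 21, against 44.8 and 47.5 FPKM at ZT 18 (difference of -0.60 ± 0.07, adjusted p = 6.3e-06) and was highest at ZT 9, with 87.7 FPKM. Neither gene's groups overlapped. Among other metabolic and redox genes, the thioredoxin-domain gene Cre23.g766300 had 66.4 and 73.4 FPKM at ZT 21, against 24.7 and 22.8 FPKM at ZT 18 (difference of 1.52 ± 0.09, adjusted p = 2.1e-08), and the short-chain dehydrogenase Cre01.g015350 had 216 and 234 FPKM at ZT 21, against 102 and 104 FPKM at ZT 18 (difference of 1.12 ± 0.14, adjusted p = 1.4e-05). Thioredoxin domains reduce disulfide bonds in other proteins. In all, 14 of 43 genes with that domain rose and 5 fell (3 without ZT 21 replicate B and 8 without scaling), beside 26.0% and 20.8% of all genes, and 3 rose by at least 2-fold. The shares of the family were 32.6% and 11.6%.

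**Figure D2:**
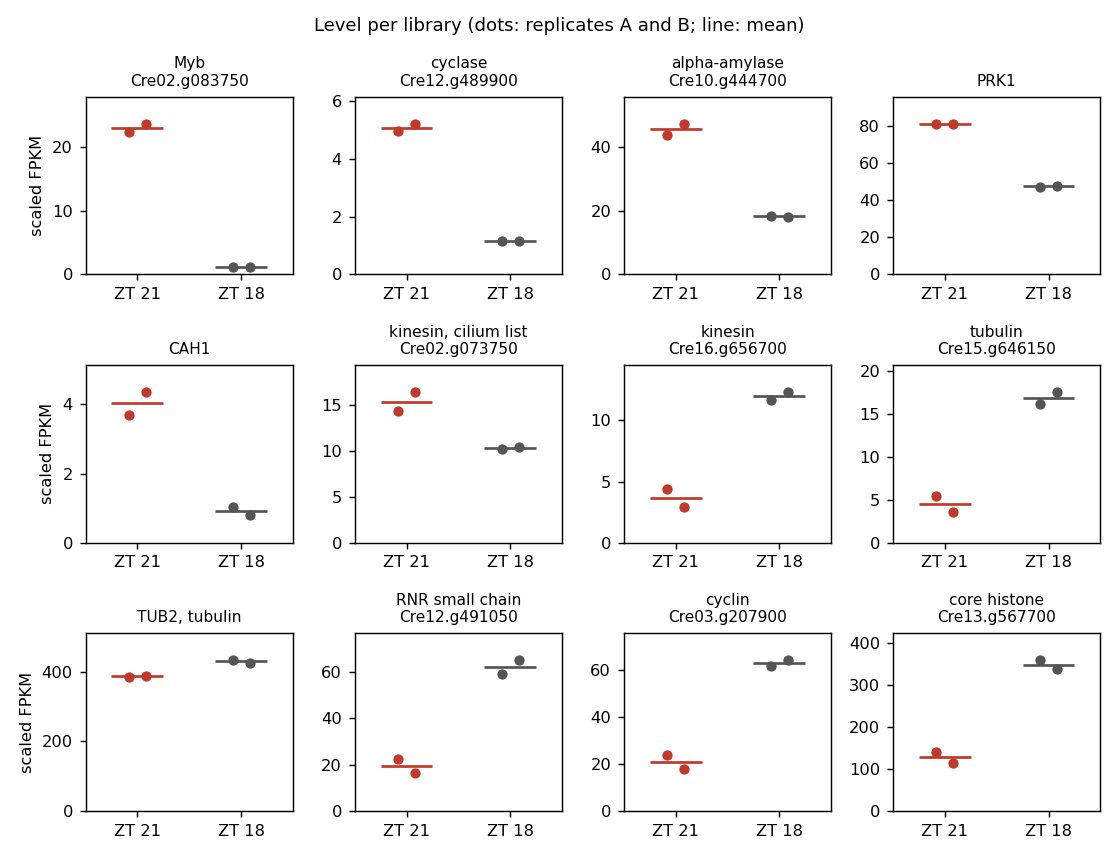
Scaled FPKM of 12 genes in each library, with ZT 21 at left and ZT 18 at right in every panel, dots for replicates A and B and a line for their mean; each axis starts at 0. The Myb, cyclase, alpha-amylase, PRK1, CAH1 and cilium-list kinesin genes are higher at ZT 21, the other kinesin, tubulin Cre15.g646150, ribonucleotide reductase (RNR), cyclin and histone genes are lower, and TUB2 (387 and 389 FPKM at ZT 21, 434 and 427 FPKM at ZT 18) did not pass the test.

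Transcripts for cilia rose together. The cilium list of the study was read only in part. Of the 26 genes read, 25 were higher at ZT 21 and none was lower, with a median difference of 0.44. All 9 genes of the cell projection organization list rose too, with a median of 0.42 and a range of 0.28 to 0.52; 7 of the 9 are also among the cilium genes read. Both lists were formed by the study from these libraries as genes that peak at ZT 21, so a rise toward ZT 21 is partly set by that choice. The most abundant of the cilium genes read was Cre03.g181150, with 992 and 983 FPKM at ZT 21, against 883 and 778 FPKM at ZT 18 (difference of 0.25 ± 0.07, adjusted p = 0.0089). Its call was lost without ZT 18 replicate B (adjusted p = 0.14), without scaling (adjusted p = 0.093) and with the 4 libraries alone (adjusted p = 0.065). Cre07.g351650 had 154 and 179 FPKM at ZT 21, against 126 and 112 FPKM at ZT 18 (difference of 0.48 ± 0.10, adjusted p = 0.0013), and Cre12.g536550 had 84.1 and 86.0 FPKM at ZT 21, against 62.7 and 60.8 FPKM at ZT 18 (difference of 0.46 ± 0.07, adjusted p = 1.1e-04). In both genes the 2 cultures of ZT 21 were above those of ZT 18 by a margin wider than the replicate gap.

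The 25 cilium genes that rose spanned differences of 0.25 to 0.60, although their means at ZT 18 spanned 2.97 to 830.4 FPKM. The lower end of that range depends on the call, and the gene not called had a difference of 0.14. The kinesin Cre02.g073750, in both lists, had 14.3 and 16.4 FPKM at ZT 21, against 10.2 and 10.5 FPKM at ZT 18 (difference of 0.52 ± 0.08, adjusted p = 9.4e-05), and Cre05.g242500, also in both, had 41.9 and 46.0 FPKM at ZT 21, against 31.5 and 29.0 FPKM at ZT 18 (difference of 0.52 ± 0.08, adjusted p = 8.8e-05). A cilium gene with a thioredoxin domain, Cre17.g714250, had 43.0 and 45.8 FPKM at ZT 21, against 32.5 and 29.7 FPKM at ZT 18 (difference of 0.50 ± 0.10, adjusted p = 7.4e-04). The smallest change among the 9 cell projection genes was that of Cre12.g494800, with 68.8 and 59.6 FPKM at ZT 21, against 50.4 and 54.8 FPKM at ZT 18. It passed the test (adjusted p = 0.02, limma), but not without ZT 18 replicate A (adjusted p = 0.15) without ZT 21 replicate A (adjusted p = 0.19) or without scaling (adjusted p = 0.13).

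Kinesins, motors that walk along microtubules in cilia, in the spindle and in the cytoplasm, changed in both directions. Of 35 kinesin genes tested, 9 rose, 19 fell and 7 did not pass, and 7 fell by at least 2-fold, with a family median of -0.32. The share that rose, 25.7%, was near the 26.0% of all genes. The share that fell was 54.3%, beside 20.8% of all genes. The steepest fall was in Cre16.g656700 (chromosome 16, 1185270 to 1191171), with 4.40 and 2.89 FPKM at ZT 21, against 11.7 and 12.3 FPKM at ZT 18 (difference of -1.50 ± 0.14, adjusted p = 1.3e-06). It was followed by Cre01.g065200, with 4.31 and 2.68 FPKM at ZT 21, against 10.6 and 12.2 FPKM at ZT 18 (difference of -1.48 ± 0.15, adjusted p = 2.5e-06). The largest rise was in Cre12.g546100, with 12.0 and 14.8 FPKM at ZT 21, against 8.41 and 8.52 FPKM at ZT 18 (difference of 0.60 ± 0.10, adjusted p = 2.3e-04), and the most abundant kinesin that rose, Cre12.g522550, had 44.9 and 41.9 FPKM at ZT 21, against 32.7 and 33.0 FPKM at ZT 18 (difference of 0.39 ± 0.09, adjusted p = 0.0023). Over the day, 15 of the 19 kinesins that fell had their highest mean at ZT 12, whereas 8 of the 9 that rose had it at ZT 21. A gene that fell cannot have its highest mean at ZT 21, so these counts describe the daily profiles and are not a second test. In 18 of the 19 kinesins that fell, replicate B at ZT 21 was below replicate A.

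Tubulins, the subunits of microtubules, showed a split by abundance. Of 10 tubulin genes, 6 fell, none rose (1 with the replicate letters as a block in the fit), and the family median was -0.38. The 4 that did not pass were the 4 most abundant. Cre03.g190950 had 1579 and 1720.4 FPKM at ZT 21, against 1533 and 1608 FPKM at ZT 18, and Cre04.g216850 had 1166 and 1284 FPKM at ZT 21, against 1030.1 and 1077 FPKM at ZT 18, with differences of 0.07 ± 0.11 and 0.22 ± 0.10 (SE). The beta-tubulin TUB1 had 914 and 944 FPKM at ZT 21, against 804 and 846 FPKM at ZT 18, and the beta-tubulin TUB2 had 387 and 389 FPKM at ZT 21, against 434 and 427 FPKM at ZT 18. The difference of TUB2 passed the test when libraries were not scaled (-0.25, adjusted p = 0.027). The 6 that fell were all below 40 FPKM in every library. Cre15.g646150 had 5.48 and 3.57 FPKM at ZT 21, against 16.1 and 17.6 FPKM at ZT 18 (difference of -1.71 ± 0.14, adjusted p = 3.6e-07), Cre02.g118600 had 12.3 and 8.52 FPKM at ZT 21, against 33.7 and 37.7 FPKM at ZT 18 (difference of -1.70 ± 0.15, adjusted p = 5.6e-07), and Cre06.g299300 had 3.70 and 2.91 FPKM at ZT 21, against 8.51 and 9.35 FPKM at ZT 18 (difference of -1.21 ± 0.12, adjusted p = 2.2e-06). Tubulin and histone genes have near-identical copies, and since the authors' mapping kept 1 hit per read, the share given to each copy is uncertain.

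**Figure D3:**
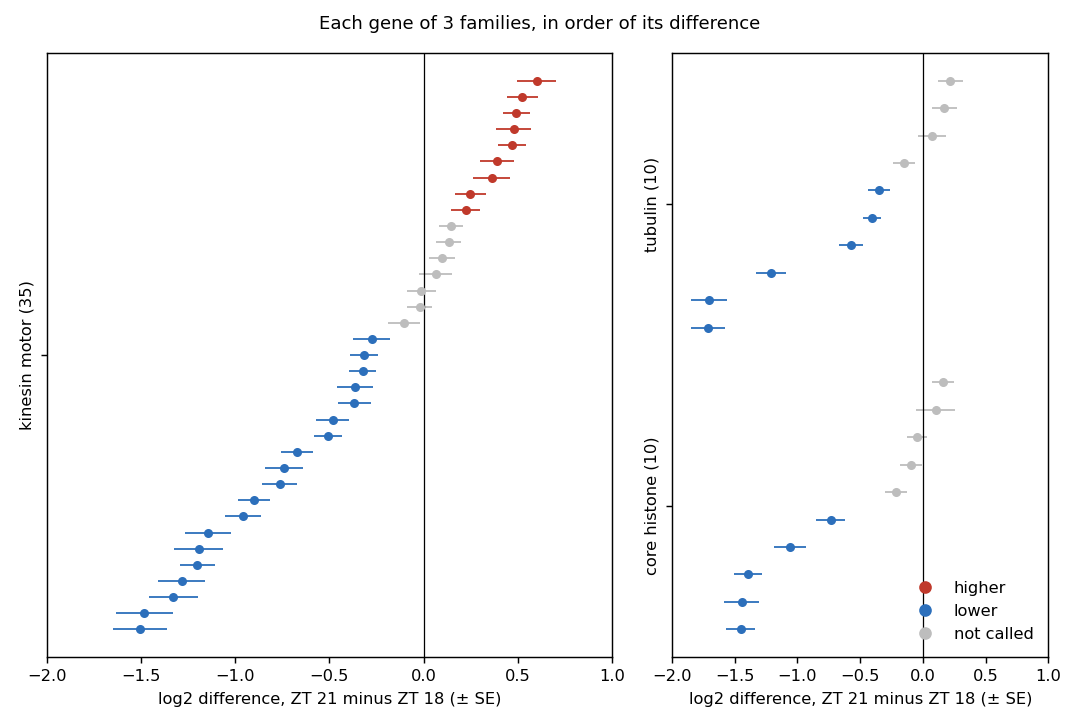
Log2 difference, ZT 21 minus ZT 18, of each kinesin gene (left panel), tubulin gene and core histone gene (right panel), sorted from highest to lowest, with bars of ± 1 SE from the limma fit. Red genes were higher at ZT 21, blue ones lower and grey ones not called. Kinesins spread from -1.50 to 0.60, while no tubulin or core histone was called higher in this fit (1 tubulin was with the replicate letters as a block).

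Several genes that copy and pack DNA fell. Cre12.g491050, the small chain of ribonucleotide reductase, which makes deoxyribonucleotides for DNA synthesis, had 22.5 and 16.3 FPKM at ZT 21, against 59.3 and 65.1 FPKM at ZT 18 (chromosome 12, 956601 to 960026; difference of -1.65 ± 0.16, adjusted p = 2.0e-06). The other gene of that family, Cre12.g509400, also fell but lost its call when any 1 of the 4 libraries was left out, with 12.1 and 11.5 FPKM at ZT 21, against 14.0 and 14.4 FPKM at ZT 18 (difference of -0.25 ± 0.08, adjusted p = 0.027). Of 4 family B DNA polymerase genes, the 2 that passed the filter on low values both fell, and without that filter 1 was higher. Among all genes tested, 20.8% were lower. Cre01.g015250 had 2.08 and 1.54 FPKM at ZT 21, against 4.78 and 5.57 FPKM at ZT 18 (difference of -1.14 ± 0.12, adjusted p = 2.1e-06) and Cre04.g214350 had 0.812 and 0.525 FPKM at ZT 21, against 1.83 and 2.29 FPKM at ZT 18 (difference of -0.88 ± 0.10, adjusted p = 7.6e-06). With a mean of 0.668 FPKM at ZT 21, Cre04.g214350 passed the filter only through ZT 18, where it was high. Likewise, both DNA gyrase B domain genes, whose products relieve the twist of DNA, were lower, with Cre01.g009250 at 2.46 and 1.57 FPKM at ZT 21, against 6.43 and 7.14 FPKM at ZT 18 (difference of -1.38 ± 0.13, adjusted p = 1.3e-06). All 3 RecA-domain genes, of the recombination machinery, fell, and the largest of these falls was in Cre14.g622850, with 3.74 and 2.32 FPKM at ZT 21, against 8.17 and 8.39 FPKM at ZT 18 (difference of -1.23 ± 0.17, adjusted p = 2.7e-05). In each of these genes ZT 18 was the higher time point in both cultures.

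Core histones, which package DNA into nucleosomes, were mostly too low to test. Only 10 of 129 genes passed the filter on low values, which is a small and selected part of the family. Of these 10, 5 fell (50.0%, beside 20.8% of all genes) and none rose, and 4 fell by at least 2-fold. Cre13.g567700 (chromosome 13, 863767 to 865192) was the most abundant by a wide margin, with 141 and 114 FPKM at ZT 21, against 358 and 338 FPKM at ZT 18 (difference of -1.45 ± 0.11, adjusted p = 3.3e-07), and its mean was 573 FPKM at ZT 12. The others that fell by at least 2-fold were Cre03.g193900 (-1.45), Cre16.g661450 (-1.39) and Cre02.g104800 (-1.06). Without a filter on low values, 14 core histones were lower and 3 higher. Of 16 genes with the SNF2 helicase domain of chromatin remodelers, 6 fell (10 without the filter) and none rose (3 with voom, and 1 with the 4 libraries alone or a pseudocount of 0.1), from -0.34 in Cre02.g087600 to -0.81 in Cre03.g158550.

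Cyclins, the partners of the kinases that drive the cell cycle, went both ways, with 4 lower (26.7%) and 5 higher (33.3%) of 15 tested and a median of -0.05, near the 20.8% and 26.0% of all genes. Cre03.g207900 had 23.9 and 17.7 FPKM at ZT 21, against 61.7 and 64.3 FPKM at ZT 18 (difference of -1.57 ± 0.14, adjusted p = 8.3e-07) and Cre08.g370400 had 38.7 and 34.3 FPKM at ZT 21, against 83.0 and 88.1 FPKM at ZT 18 (difference of -1.21 ± 0.09, adjusted p = 2.1e-07). Both are among the genes at least 2-fold lower. The count lower was 2 without ZT 21 replicate B and 2 without ZT 18 replicate B, and the count higher was 3 without ZT 21 replicate A and 3 without ZT 18 replicate A. On the other side, Cre04.g221300 had 4.14 and 3.78 FPKM at ZT 21, against 1.48 and 1.52 FPKM at ZT 18 (difference of 0.99 ± 0.07, adjusted p = 1.3e-07). Its level was low, with 3.96 FPKM as its highest mean over the 8 time points. The largest falls in other families of regulators were of a like extent, although not all of these families fell. The median difference was 0.14 over protein kinases, 0.05 over RING finger genes and -0.26 over ubiquitin-like genes. Of 44 RING finger genes tested, 7 rose (15.9%) and 11 fell (25.0%). The protein kinase Cre08.g372550 had 28.1 and 20.8 FPKM at ZT 21, against 72.1 and 75.7 FPKM at ZT 18 (difference of -1.57 ± 0.13, adjusted p = 5.6e-07), the RING finger gene Cre01.g007350, of a domain common in ubiquitin ligases, had 8.28 and 5.45 FPKM at ZT 21, against 20.9 and 21.2 FPKM at ZT 18 (difference of -1.51 ± 0.15, adjusted p = 2.1e-06), and the ubiquitin-like gene Cre01.g066450 had 3.07 and 2.96 FPKM at ZT 21, against 8.83 and 8.99 FPKM at ZT 18 (difference of -1.30 ± 0.12, adjusted p = 1.1e-06).

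Motors and filaments of the actin system were lower or not called. All 3 myosin genes fell, with differences from -0.45 to -0.87. The myosin Cre13.g563800 had 2.28 and 1.67 FPKM at ZT 21, against 4.04 and 4.81 FPKM at ZT 18 (difference of -0.87 ± 0.11, adjusted p = 1.1e-05). Of 7 actin and actin-related genes, 4 fell (57.1%, beside 20.8% of all genes), by small amounts. Cre13.g603700, the most abundant, had 75.3 and 75.2 FPKM at ZT 21, against 89.4 and 101 FPKM at ZT 18 (difference of -0.33 ± 0.09, adjusted p = 0.009). The count of 4 was 1 without ZT 21 replicate B and 1 without ZT 18 replicate B.

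Families that make, break down and bind cyclic nucleotides had many more rises than falls. Cyclases make cyclic AMP or cyclic GMP, phosphodiesterases destroy them, and proteins with a cyclic nucleotide-binding domain, such as some kinases and channels, respond to them. In *C. reinhardtii*, cyclic AMP is known for its part in ciliary adhesion during mating. Of 65 cyclase genes tested (of 118), 34 rose and 3 fell, with a median difference of 0.21, and the count that rose was 21 without ZT 18 replicate A. Of 20 phosphodiesterase genes tested, 12 rose and none fell, with a median of 0.35. Of 20 genes with a cyclic nucleotide-binding domain, 13 rose and 1 fell, also with a median of 0.35. Of these 13, 12 had their highest mean of the day at ZT 21. The share at ZT 21 was 39.8% among all genes that rose and 14.1% among all genes tested. The count of 12 uses the same libraries and is not a second test. Among all genes tested, 26.0% rose.

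The cyclase Cre12.g489900 (chromosome 12, 822454 to 835217) changed most, with 4.94 and 5.20 FPKM at ZT 21, against 1.15 and 1.16 FPKM at ZT 18 (difference of 1.49 ± 0.06, adjusted p = 7.7e-10). It was the only cyclase at least 2-fold higher among those tested, and its mean was 5.99 FPKM at ZT 0 and 0.0891 FPKM at ZT 12. The next was Cre11.g477400, which also holds a response regulator domain, with 2.45 and 2.74 FPKM at ZT 21, against 1.08 and 1.08 FPKM at ZT 18 (difference of 0.79 ± 0.06, adjusted p = 4.0e-07). Cre09.g391050 was the cyclase with the largest fall, with 3.17 and 2.75 FPKM at ZT 21, against 4.12 and 4.73 FPKM at ZT 18 (difference of -0.45 ± 0.09, adjusted p = 8.6e-04). The phosphodiesterase Cre02.g114100 had 2.80 and 2.99 FPKM at ZT 21, against 0.941 and 1.26 FPKM at ZT 18 (difference of 0.90 ± 0.09, adjusted p = 2.6e-06), and the cyclic nucleotide-binding gene Cre12.g553900 had 3.55 and 3.89 FPKM at ZT 21, against 2.10 and 2.03 FPKM at ZT 18 (difference of 0.62 ± 0.08, adjusted p = 1.1e-05). The most abundant binding-domain gene that rose was Cre02.g076900, with 52.0 and 53.4 FPKM at ZT 21, against 39.2 and 40.4 FPKM at ZT 18 (difference of 0.40 ± 0.07, adjusted p = 3.9e-04). Apart from this gene, most members stood at a few FPKM in all 4 libraries.

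Other signaling families also leaned upward. Response regulators rose in 64.7%, beside 26.0% higher and 20.8% lower among all genes tested. Of 17 response regulators, which receive phosphate in phosphorelays, 11 rose and none fell, with a median of 0.32, and 4 of these 11 are cyclases as well. The strongest was Cre13.g572450, with 12.4 and 10.2 FPKM at ZT 21, against 4.53 and 5.97 FPKM at ZT 18 (difference of 0.98 ± 0.16, adjusted p = 1.3e-04). Of 396 protein kinase genes tested (of 594), 165 rose (41.7%) and 48 fell (12.1%), with a median of 0.14. The count that rose was 105 without ZT 18 replicate A, and the count that fell was 78 without scaling. The kinase Cre09.g413200 had 18.3 and 18.8 FPKM at ZT 21, against 9.30 and 8.99 FPKM at ZT 18 (difference of 0.94 ± 0.07, adjusted p = 3.4e-07) and was nearly silent in the light, with 0.0325 FPKM at ZT 9. Cre02.g120250, another kinase, had 21.8 and 22.2 FPKM at ZT 21, against 9.37 and 8.66 FPKM at ZT 18 (difference of 1.20 ± 0.07, adjusted p = 2.8e-08).

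EF-hand proteins bind calcium, which controls ciliary beating among other processes. Of 22 EF-hand genes, 12 rose (54.5%, beside 26.0% of all genes) and 5 fell (22.7%, near the 20.8% of all genes), with a median of 0.22. The shares of the C2 domain genes below were 10.0% and 40.0%. Those that rose included Cre03.g202950, with 10.6 and 11.1 FPKM at ZT 21, against 5.27 and 5.26 FPKM at ZT 18 (difference of 0.92 ± 0.07, adjusted p = 1.4e-07). Those that fell included Cre03.g150300, with 18.5 and 15.9 FPKM at ZT 21, against 35.1 and 36.6 FPKM at ZT 18 (difference of -1.02 ± 0.11, adjusted p = 3.6e-06), and the more abundant Cre11.g468450, with 97.6 and 91.5 FPKM at ZT 21, against 169.7 and 159 FPKM at ZT 18 (difference of -0.79 ± 0.08, adjusted p = 2.5e-06). The C2 domain, which binds membranes in a calcium-dependent manner in many proteins, was found in 20 genes tested, of which 2 rose and 8 fell (5 without ZT 18 replicate B).

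**Figure D4:**
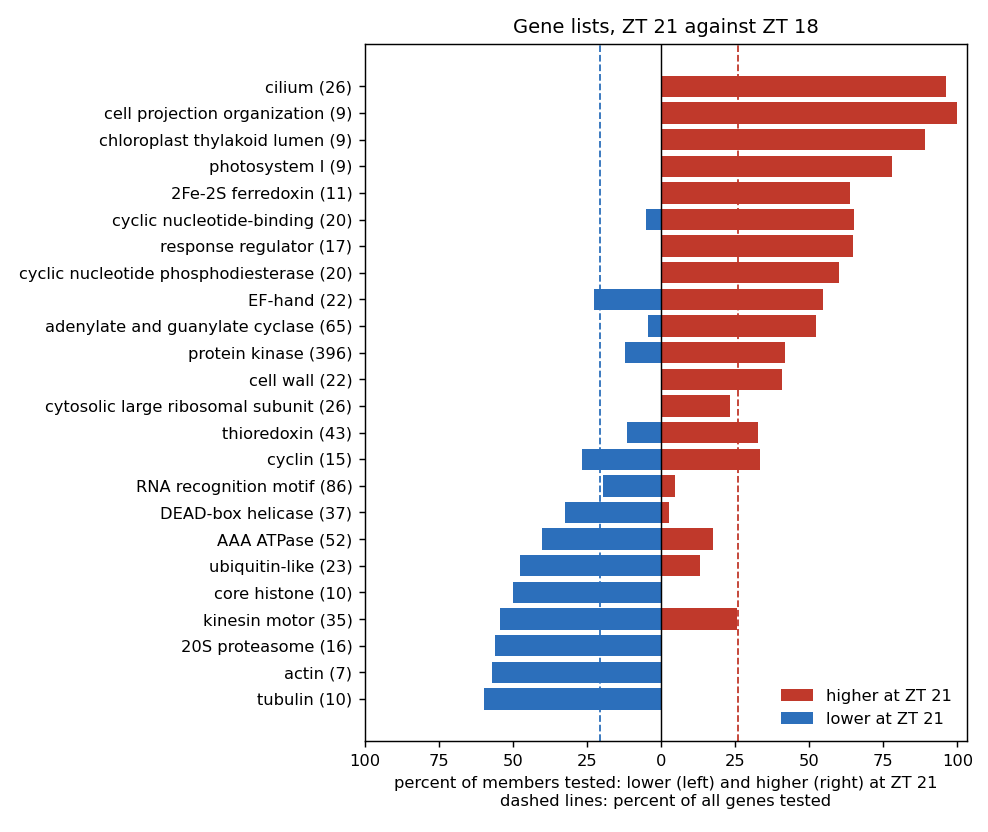
Percent of the tested members of 24 gene lists that were higher (red, right) or lower (blue, left) at ZT 21 than at ZT 18, with the number tested in parentheses. The dashed lines mark the 26.0% and 20.8% of all genes tested that were called higher and lower. The cilium, photosynthesis and cyclic nucleotide lists extend to the right, and the tubulin, actin, proteasome, kinesin and histone lists to the left.

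Families of protein breakdown differed in direction. Among all genes tested, 26.0% rose and 20.8% fell. The share that fell was 56.25% of 20S proteasome genes, and the share that rose was 55.6% of papain-like proteases. Of AAA ATPases, 17.3% rose and 40.4% fell. All 16 genes of the 20S proteasome, the core that degrades tagged proteins, were tested, and 9 fell and none rose, with a median of -0.23. The largest of these small falls was in Cre17.g724350, with 9.96 and 8.62 FPKM at ZT 21, against 13.1 and 13.7 FPKM at ZT 18 (difference of -0.49 ± 0.10, adjusted p = 8.2e-04). All 9 that fell had their highest mean at ZT 9, and 1 of 16 fell without ZT 21 replicate B and 3 without ZT 18 replicate B, so the call of this family depends on single cultures. Ubiquitin-like genes fell in 11 of 23 (47.8%, beside 20.8% of all genes) and rose in 3 (1 without ZT 21 replicate B). Papain-like proteases went the other way, with 5 higher and none lower of 9 (2 higher without ZT 18 replicate A and 3 without ZT 21 replicate A). AAA ATPases, which use ATP to unfold or remodel proteins, fell in 21 of 52 (13 without ZT 21 replicate B, and 13 without ZT 18 replicate B) and rose in 9. The most pronounced rise among them was in Cre04.g229300, with 270.2 and 310.2 FPKM at ZT 21, against 112 and 105 FPKM at ZT 18 (difference of 1.41 ± 0.11, adjusted p = 2.5e-07), and the most pronounced fall was in Cre02.g136700, with 2.23 and 1.48 FPKM at ZT 21, against 5.73 and 6.69 FPKM at ZT 18 (difference of -1.34 ± 0.13, adjusted p = 1.1e-06).

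RNA-handling families had few rises. Of 86 genes with an RNA recognition motif, 4 rose (4.65%, beside 26.0% of all genes) and 17 fell (19.8%, near the 20.8% of all genes). The count that fell was 9 without ZT 21 replicate B, 9 and 10 without ZT 18 replicates A and B, and 34 without scaling. Of 37 DEAD-box helicases, which unwind RNA, 1 rose (0 without ZT 21 replicate B) and 12 fell, shares of 2.70% and 32.4%. Cre06.g268600 was among the 4 RNA recognition motif genes that rose, with 71.0 and 79.8 FPKM at ZT 21, against 46.8 and 47.0 FPKM at ZT 18 (difference of 0.67 ± 0.08, adjusted p = 8.4e-06). The translation GTPase Cre07.g335200 had 144 and 158 FPKM at ZT 21, against 77.7 and 78.9 FPKM at ZT 18 (difference of 0.94 ± 0.08, adjusted p = 5.4e-07).

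Ribosomal protein genes were near the threshold and their count turned on single libraries. Of the 26 genes of the cytosolic large subunit list that were read, 6 rose and none fell, with a median of 0.21, and of 20 genes of the small subunit, 5 rose and none fell, with a median of 0.22. Without ZT 21 replicate A, 16 and 12 rose, and without ZT 21 replicate B, 0 and 1. Without ZT 18 replicate A, 3 and 2 rose, and without ZT 18 replicate B, 0 and 1. At 23.1% and 25.0%, the main shares that rose are close to the 26.0% of all genes, so no change of these genes as a group can be read from the counts. All genes read were higher on average at ZT 21, with smallest differences of 0.13 in both lists. Over the pairs of a ZT 21 with a ZT 18 library, however, the list medians had SDs of 0.15 and 0.16. The study's cell wall list had a larger share higher, 40.9%. Its median level over the day followed that of the small subunit list, with 1.32 against 1.33 of the daily mean at ZT 3. At ZT 9 the values were 0.88 against 0.87. Genes shared by these lists were not counted, so the cell wall list cannot be read as a separate set. The ribosomal counts moved with single libraries, as given above. The cell wall list behaved alike, with 9 of 22 higher and none lower, 15 without ZT 21 replicate A, 2 without ZT 21 replicate B and 2 without ZT 18 replicate B.

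The late night step was then set against the step before it, ZT 18 against ZT 15, by testing the difference of both steps in the same fit. Both steps use the ZT 18 libraries, so their values are given side by side. From ZT 15 to ZT 18, 1146 genes were higher at ZT 18 (9.77%) and 985 were lower (8.40%), fewer than in the late night step, and the median size of a difference was 0.12, against 0.21 for the late night step. The 2 steps differed in 2780 genes (23.7%), with the late night step above the earlier one in 1366 (11.6%) and below it in 1414 (12.1%). The count was 1121 without ZT 18 replicate B and 1325 without ZT 18 replicate A, the libraries that both steps share.

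Several of the genes with large falls had changed little in the step before. The ribonucleotide reductase gene Cre12.g491050 had a difference of -1.65 in the late night step and 0.08 in the step before, and the 2 differed (adjusted p = 8.5e-04, limma). The cyclin Cre03.g207900 had -1.57 and 0.17 (adjusted p = 3.4e-04), the tubulin Cre15.g646150 had -1.71 and -0.06 (adjusted p = 3.9e-04), and the kinesin Cre16.g656700 had -1.50 and -0.00 (adjusted p = 8.5e-04). Of the 19 kinesins that fell, 15 had a late night step below the earlier one in this test, and of the 5 core histones that fell, all 5. The median of the step before was -0.00 over the kinesins, -0.06 over the tubulins and 0.19 over the core histones.

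Cilium genes had a median of 0.44 in the late night step and -0.03 in the step before, and in 15 of the 26 the late night step was above the earlier one. Photosystem I genes showed the other order, with medians of 0.39 and 0.89 and a late night step below the earlier one in 7 of 9. For LHCII the differences were 0.53 in the late night step and 1.16 in the step before (adjusted p of the difference = 0.016, limma), while for PRK1 the difference of the steps did not pass the test (adjusted p = 0.14). CAH1 rose more in the late night, with 1.40 against 0.34 (adjusted p = 0.0062). The Myb gene Cre02.g083750, at 3.49 and 0.97, also rose more in the late night (adjusted p = 1.0e-06).

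**Figure D5:**
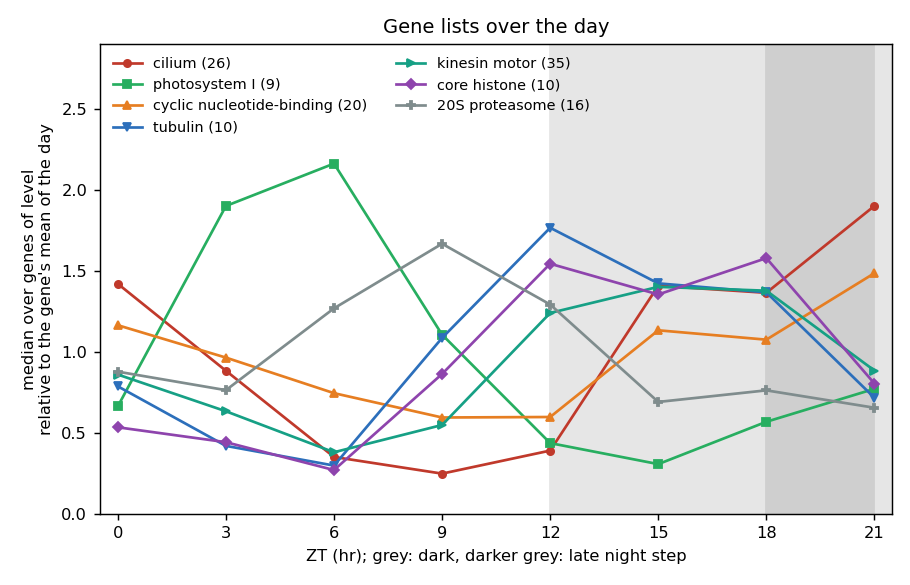
Median over the genes of 7 lists of the level at each time point divided by the gene's mean of the day, with the number of genes tested in parentheses, over the 8 time points from ZT 0 to ZT 21. Grey marks the night after ZT 12 and darker grey the late night step; ZT 0 was also sampled in the dark. Between ZT 18 and ZT 21 the cilium median goes to 1.90, the tubulin median to 0.72 and the core histone median to 0.80 of the daily mean.

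Over the whole day, the genes that changed in the late night fell into broad profiles. Of the 304 genes at least 2-fold lower at ZT 21, 257 (84.5%) had their highest mean at ZT 12, at the end of the light period, and 219 (72.0%) their lowest at ZT 3. Among all genes tested, 15.7% were highest at ZT 12 and 14.6% lowest at ZT 3. Of the 106 genes at least 2-fold higher, 40 (37.7%) were highest at ZT 21, 26 at ZT 0 and 27 at ZT 3. For all 3045 genes that rose, the highest mean was at ZT 21 in 1213 (39.8%) and at ZT 3 in 748 (24.6%). These shares use the ZT 21 and ZT 18 libraries again and describe the genes without a test.

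Groups of genes that the study had clustered by expression moved as blocks. Of the 7 clusters with a phase of ZT 15 that were read, all had a median below 0, from -0.28 to -1.50, and in 4 of them, of each of which only 26 genes were read, 23 to 26 genes fell. In another, also read only in part, 16 of 26 fell (10 without ZT 21 replicate B). The 1 cluster with a phase of ZT 18 had 3 genes higher and 4 lower of 26 (1 and 2 without ZT 21 replicate B). The cluster with a phase of ZT 21 had 23 of 26 higher, with a median of 0.49, and the 3 clusters with a phase of ZT 0 had 24 of 24, 24 of 26 and 8 of 9 higher (the 8 were 5 without ZT 21 replicate B and 5 without ZT 18 replicate B). Since the clusters were formed from the same libraries, these counts describe their course and are not independent evidence.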

How the data were processed

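RNA of 16 cultures was sequenced, and the time point and letter of each came from the sample titles. Reads were aligned by the authors with TopHat against version 4.3 of the genome. The deposited FPKM are the Cufflinks output for each gene model, not scaled between libraries (tool versions not given in the sources used here). Scaling brought all libraries to 1 shared 75th percentile, taken over 17114 gene models. The number of fragments behind each value was recovered from the deposited confidence limits; below 300 fragments, 100% of values lay no more than 0.05 from a whole number. Per the study's methods, replicates A and B were sequenced in different lanes, but the lane of each library is not given there.

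Linear models of log2(FPKM + 1) with a factor of 8 time points were fitted to all 16 libraries, which share 1 estimate of the spread, with limma 3.58.1 in R 4.3.3 and an intensity trend. The contrasts were ZT 21 minus ZT 18, ZT 18 minus ZT 15 and the difference of both, adjusted by Benjamini-Hochberg over 11726 genes at 0.05. The fit was tested on simulated data. Single values rest on 2 cultures a time point, and an exact permutation test of 2 against 2 cannot reach 0.05, so none was run.

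The gene groups are 65 domain families from the trees of the study, its function lists and expression clusters, some of which were read only in part and may lack members, and 15 rhythmic genes. The reference of 17742 genes carries no symbols, and 12646 gene models matched it. Named genes were the 15, the cell projection genes, the 10 most abundant cilium genes, the 15 largest rises and falls with an annotation and 2 each without one (mean of at least 5 FPKM, called, no overlap), and the largest rise and fall of each family with at least 5 genes tested; other genes named by locus were chosen after their values were seen. The members and lists were chosen with earlier results of these data known. Alternatives were other scalings, pseudocounts, filters, voom on recovered fragments, a replicate block and leaving out each library. Promoter sequences were not analysed here. The tables and plots were made in Python 3.11.15 (pandas 2.3.3, numpy 2.4.6, matplotlib 3.10.9).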

Additional observations from a re-analysis of the deposited data

Results flagged for a closer look

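Among the named genes, 4 changed one way from ZT 15 to ZT 18 and the opposite way from ZT 18 to ZT 21, with each step and the difference between the steps past the threshold in limma. Each step rests on 2 cultures a time point and both steps share the ZT 18 cultures. The RING finger gene Cre10.g442750 went up by 0.47 and then down by 1.31, a late night step of -1.78 relative to the earlier one (adjusted p = 0.00018). The ankyrin repeat gene Cre05.g231100 went up by 0.29 and then down by 0.87, a difference of -1.16 between the steps (adjusted p = 0.0002). In the subtilase gene Cre17.g708400, of a family of serine proteases, a difference of -0.41 was followed by one of 0.67, and the steps differed by 1.07 (adjusted p = 0.00019). In the bZIP gene Cre07.g318050, of a family of DNA-binding proteins, -0.33 was followed by 0.49, and the steps differed by 0.83 (adjusted p = 0.002).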

How the results depend on the processing

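Of the 136 named genes that passed the test, 123 kept their direction and their call under all 13 alternatives that could be fitted to them, and none changed direction. With a mean of at least 5 FPKM as the filter, which left fewer genes to test, 1563 genes were higher, 1018 lower, 67 at least 2-fold higher, 163 at least 2-fold lower, and 1272 differed between the steps. A pseudocount of 0.1 gave 194 genes at least 2-fold higher and 689 lower, one of 5 gave 36 and 50, and voom on recovered fragments gave 223 and 722; the count at 2-fold therefore depends on the pseudocount. Unscaled FPKM gave 500 genes at least 2-fold lower. Leaving out 1 library at a time gave 2169 to 2639 genes higher, 1821 to 2209 lower, 93 to 130 at least 2-fold higher, 195 to 437 at least 2-fold lower and 1121 to 2703 between the steps. Where 1 library was left out, the lone library was assumed to vary like the other groups. Between ZT 21 and ZT 18, A minus B correlated at -0.28. Over the 28 pairs of time points the correlation reached 0.35 and was more than 0.1 in 10. Whether the letters A and B mark anything that cultures share was not tested. With the letters as a replicate block over all 16 libraries, 3050 genes were higher and 2430 lower. As an alternative chosen after seeing the data, the 4 libraries alone gave 2795 higher and 2332 lower with the block, and 3609 and 2929 with the letters crossed. Tests on 2 cultures a time point limit the precision of single genes, and fragment counts cover counting error only. The planned promoter motif search was not run.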

Other observations

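Transport and folding genes showed further differences between ZT 21 and ZT 18. Among all genes tested, 26.0% rose and 20.8% fell. The shares that rose and fell were 45.7% and 8.70% of ABC transporters and 50.0% and 11.1% of P-type ATPases. For ankyrin repeat genes they were 41.8% and 13.2%. Of 46 ABC transporter genes tested, 21 rose and 4 fell (13 rose without ZT 21 replicate B and 13 without ZT 18 replicate A, and 2 fell without replicate B of either time point), with a median difference of 0.20. Of 18 P-type ATPases, which pump ions, 9 rose and 2 fell (1 fell without either ZT 21 replicate or without ZT 18 replicate B). The largest rise among the pumps was in Cre10.g459200, with 100.4 and 107 FPKM at ZT 21, against 53.0 and 53.6 FPKM at ZT 18 (0.95 ± 0.15 SE, adjusted p = 0.00015 in limma). The mitochondrial carriers, which move metabolites across the inner membrane, went both ways, with Cre09.g396350 higher at ZT 21 (12.3 and 14.4 FPKM, against 6.79 and 6.94 FPKM at ZT 18) and Cre06.g270150 lower (3.78 and 2.62 FPKM, against 8.42 and 8.86 FPKM at ZT 18). Ankyrin repeat genes, whose domain binds other proteins, rose in 38 of 91 and fell in 12 (6 without ZT 21 replicate B and 6 without ZT 18 replicate B).

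Of 51 DnaJ genes, partners of Hsp70, 13 rose (25.5%, and 8 genes without ZT 18 replicate B) and 8 fell (15.7%), near the 26.0% and 20.8% of all genes. Cre02.g132300 had 1.63 and 1.85 FPKM at ZT 21, against 0.395 and 0.262 FPKM at ZT 18, and Cre09.g389550 had 5.94 and 3.37 FPKM at ZT 21, against 12.1 and 12.5 FPKM at ZT 18. Cre02.g132300 passed the filter on low values only through ZT 21, where it was high. Of 10 Hsp70 genes, 2 rose (1 without ZT 21 replicate B and 1 without ZT 18 replicate B) and 0 fell. The larger of these rises was in Cre12.g545850, with 18.9 and 21.7 FPKM at ZT 21, against 12.9 and 12.2 FPKM at ZT 18 (0.64 ± 0.10 SE, adjusted p = 1.0e-04 in limma).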
